A study of Mus musculus with 2 samples.

Results

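The genes described here encode the semaphorins, their plexin and neuropilin receptors, the Slits and their Robo receptors. Members were the rows of both count matrices whose symbol begins with Sema and a digit, or with Plxna, Plxnb, Plxnc or Plxnd, or is that of a named neuropilin, Slit or Robo gene. This gave 41 of 27998 genes. They were 7 secreted semaphorins, 13 membrane-bound or membrane-anchored semaphorins, 9 plexins, 2 neuropilins, 3 Slits, 4 Robos and 3 antisense transcripts of the Plxna4 locus, so that 38 were protein-coding.

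Semaphorins are extracellular signals that turn growing axons and migrating cells aside, or in some settings attract them. Most secreted semaphorins bind a neuropilin, which has little signalling activity of its own and works with a plexin, whereas most membrane semaphorins bind plexins directly. Slits are large secreted proteins that repel cells carrying Robo receptors. In the embryonic face these signals are known for guiding sensory axons, neural crest cells and blood vessels.

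Single-cell RNA sequencing was done on 2 libraries from the lambdoid junction, the place in the upper face where nasal and maxillary prominences meet. One library came from wild-type embryos and the other from Crect; ROSA26-lacZ embryos, which carry a Cre transgene and a lacZ reporter. Both were labelled C57BL/6J and E11.5 (the embryonic day), and each pooled the dissociated tissue of 4 to 5 embryos. Crect is known as a Cre line active in surface ectoderm. The sources used here do not name its promoter.

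The wild-type library held 7966 barcodes with 126638790 UMIs (counted molecules), and the Crect lacZ library 6894 barcodes with 127765199 UMIs. After filters 7409 and 6329 cells remained, with medians of 13822 and 17278 UMIs per cell. Of the barcodes kept, 59 occurred in both libraries. Cells were clustered without the 41 genes and named from marker lists, so every class carries the ending "-like". In the wild-type and Crect lacZ libraries there were 5922 and 5261 mesenchyme-like cells, 892 and 656 ectoderm-like cells, and 56 and 93 neuron-like cells that had clustered with the ectoderm. Endothelium-like cells numbered 207 and 118, macrophage-like cells 30 and 28, and crest glia-like cells 28 and 22. Levels are given as CPM, the UMIs of a gene scaled to 1000000 UMIs of a class in 1 library. The summed level of 8 endothelial markers was 3788 and 3566 CPM in endothelium-like cells and 31.2 to 33.1 in mesenchyme-like cells. Erythroid-like cells, 227 and 136, served as a measure of free RNA, because they should lack these genes. Red cell markers took 606183 CPM of the wild-type and 580818 of the Crect lacZ erythroid-like cells. This lowers the CPM and the thinned shares of all other genes there. Erythroid-like values may therefore understate the free RNA in other classes, and they are a rough guide only. Red cell markers summed to 3799 CPM in wild-type mesenchyme-like cells and 1777 in Crect lacZ ones, whereas mesenchymal markers summed to 114 in wild-type and 138 in Crect lacZ erythroid-like cells.

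Class comparisons used the 2 libraries as the replicates, with the library as a term, although they differ in genotype. The p-values therefore reflect only spread seen with these 2 pooled libraries. In edgeR a gene's own spread is combined with one shared over genes, which weighed 14.4 degrees of freedom against 5 in the class fit. In the periderm-like and arterial-like fits the shared spread was used alone, so a gene's own spread did not count. A member was called when its adjusted p was under 0.05 and its difference at least 2-fold. Of the members, 23 reached 20 CPM on average in at least 1 class and are described one by one. The other 18 had at most 17.1 CPM in their highest class, and 1 of them, Plxna4os3, had no UMI in either library.

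**Figure D1:**
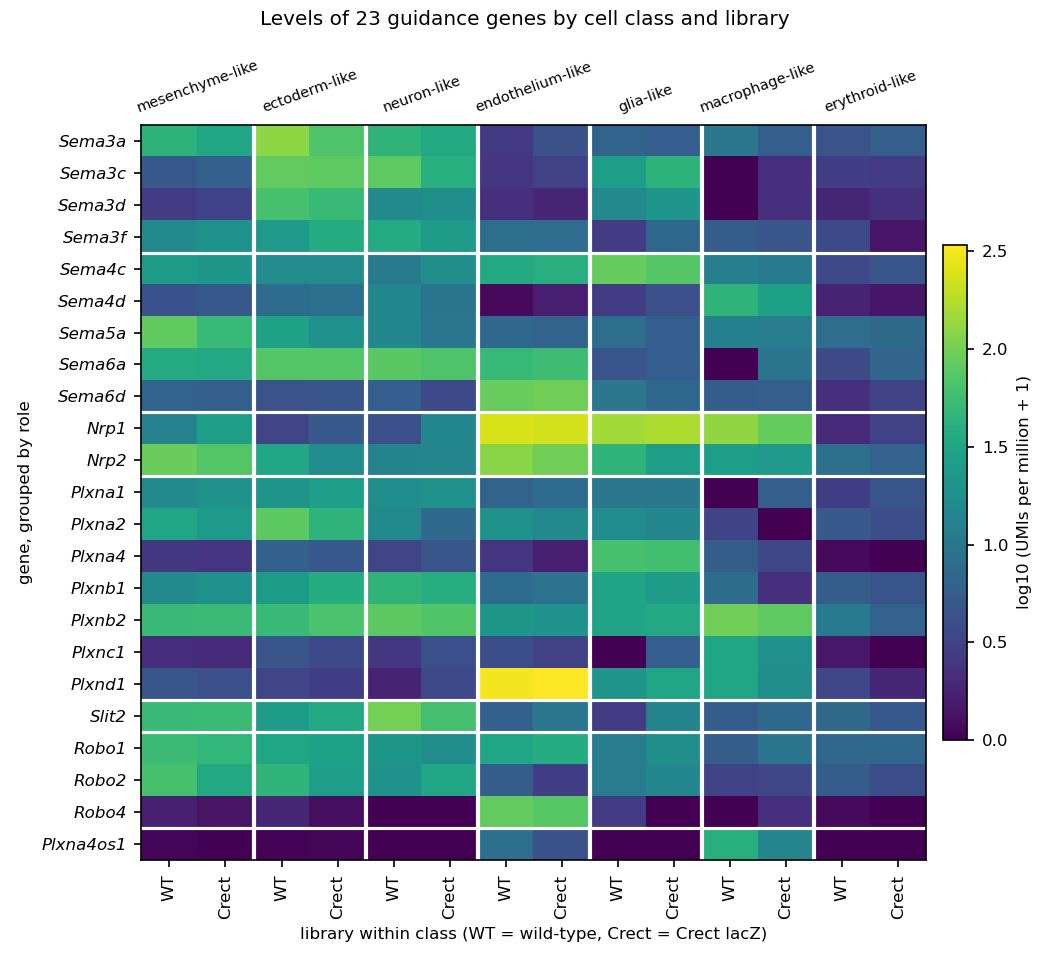
Levels of the 23 members that reached 20 CPM in some class (rows, grouped by role) in each class and library (columns), coloured by log10 of CPM plus 1. Sema3c and Sema3d are bright in ectoderm-like cells, Nrp1, Plxnd1, Robo4 and Sema6d in endothelium-like cells, and all are dark in erythroid-like cells.

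Promoter sequences are shown for 4 of the 23 members that reached 20 CPM, the 2 with the largest fold over mesenchyme in ectoderm-like cells (Sema3d and Sema3c) and the 2 with the largest in endothelium-like cells (Robo4 and Plxnd1). They are the 250 bases before the RefSeq start of each gene (GRCm38.p6, the assembly of mm10), written on the gene's own strand. Capitals mark the letters GGAAG, the core bound by ETS factors, and GCCNNNGGC, the palindrome bound by AP-2 factors, each searched on both strands, so that the core also appears as CTTCC. No GGAAG match overlapped a GCCNNNGGC match in these windows.
Sema3c, chr5:17574566-17574815, plus strand: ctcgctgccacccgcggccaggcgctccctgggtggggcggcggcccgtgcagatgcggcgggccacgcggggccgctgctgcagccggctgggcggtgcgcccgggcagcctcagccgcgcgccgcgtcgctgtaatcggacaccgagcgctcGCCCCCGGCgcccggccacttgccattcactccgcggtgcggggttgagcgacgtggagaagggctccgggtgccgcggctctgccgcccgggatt
Sema3d, chr5:12382916-12383165, plus strand: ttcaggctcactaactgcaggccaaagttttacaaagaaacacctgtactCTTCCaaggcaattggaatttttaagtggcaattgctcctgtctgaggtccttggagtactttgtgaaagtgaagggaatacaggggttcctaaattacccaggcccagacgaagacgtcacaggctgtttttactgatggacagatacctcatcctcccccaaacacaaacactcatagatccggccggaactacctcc
Robo4, chr9:37401722-37401971, plus strand: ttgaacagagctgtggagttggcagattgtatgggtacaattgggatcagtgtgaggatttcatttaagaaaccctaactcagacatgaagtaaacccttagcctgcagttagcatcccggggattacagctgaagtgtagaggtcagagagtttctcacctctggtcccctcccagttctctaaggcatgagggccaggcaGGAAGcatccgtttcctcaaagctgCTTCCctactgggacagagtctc
Plxnd1, chr6:115995006-115995255, minus strand: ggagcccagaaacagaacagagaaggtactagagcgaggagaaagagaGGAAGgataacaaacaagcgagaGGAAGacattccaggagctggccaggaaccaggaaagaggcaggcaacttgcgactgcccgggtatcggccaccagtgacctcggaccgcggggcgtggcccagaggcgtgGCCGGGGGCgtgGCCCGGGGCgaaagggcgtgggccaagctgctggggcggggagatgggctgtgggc
Robo4 and Plxnd1 each held 2 core matches, Sema3d held 1 and Sema3c none. Plxnd1 held 2 AP-2 matches and Sema3c 1. The core letters are common: 64.1% of all 32851 promoter windows of this length held them, and 13.7% held GCCNNNGGC. Of the members, 32 of 41 had an entry in the table, with 45 promoters in all. The core stood in 31 of these 45 and the AP-2 letters in 9. Among promoters of members called higher in endothelium-like cells, 7 of 9 held the core, and among those called higher in ectoderm-like cells 1 of 5 held the AP-2 letters. A match is a description of the letters only.

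Secreted semaphorins differed between the surface ectoderm and the mesenchyme beneath it, and 3 of them were higher in ectoderm-like cells. Sema3d, a neuropilin ligand (chr5:12383385-12588948), was at 61.0 CPM in wild-type and 51.6 in Crect lacZ ectoderm-like cells, against 1.77 and 2.26 in mesenchyme-like cells. The difference was 28.6-fold (95% interval 23.1 to 35.3, edgeR adjusted p = 5.15e-16, 2 libraries). Sema3c, another neuropilin ligand (chr5:17574281-17730268), was at 83.4 and 79.7 against 3.89 and 4.93, an 18.9-fold difference (14.5 to 24.6, edgeR adjusted p = 8.51e-14). Both genes were near the erythroid-like levels in mesenchyme, which were 0.889 and 1.32 for Sema3d and 1.93 and 1.76 for Sema3c. After thinning each cell to 3000 UMIs, 17.3% of wild-type and 11.9% of Crect lacZ ectoderm-like cells held a Sema3d UMI, against 0 of 227 and 1 of 136 erythroid-like cells. Median depths were 14938 and 16386 UMIs in the ectoderm-like and 29449 and 13546 in the erythroid-like cells.

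Sema3a, the best known repellent of sensory axons, was present on both sides and higher in the ectoderm. Its levels were 125 and 67.2 CPM in ectoderm-like cells against 42.1 and 31.7 in mesenchyme-like cells, a 2.61-fold difference (2.17 to 3.14, edgeR adjusted p = 1.49e-08). Sema3f, a ligand of Nrp2, was at 22.5 and 35.1 against 14.9 and 18.5 and did not reach 2-fold (1.75-fold, 1.42 to 2.15). Among the receptors, Plxna2 was 2.33-fold higher in ectoderm-like cells (78.2 and 43.4 against 29.7 and 22.6, edgeR adjusted p = 4.24e-08). In the Crect lacZ library alone its log2 difference was 0.94, just short of 2-fold. Plxna4 and Plxnc1 were called higher too, at low levels of 5.10 and 3.88 against 1.59 and 1.42 for Plxna4. Among the membrane semaphorins Sema6a, a plexin-A ligand, was 2.14-fold higher (70.2 and 71.0 against 35.0 and 32.9, edgeR adjusted p = 9.04e-08).

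The neuropilins lay the other way. Nrp2, a co-receptor for secreted semaphorins and some VEGFs, was at 90.1 and 71.5 CPM in mesenchyme-like cells and 32.4 and 16.2 in ectoderm-like cells, 3.29-fold lower in ectoderm (2.72 to 3.98, edgeR adjusted p = 1.01e-09). Nrp1 was at 12.3 and 25.4 in mesenchyme-like against 2.42 and 4.05 in ectoderm-like cells, 5.62-fold lower (3.69 to 8.57, edgeR adjusted p = 4.68e-07). The ectodermal Nrp1 level was close to that of erythroid-like cells, 1.04 and 2.20. Sema5a, a membrane semaphorin with thrombospondin repeats, was 2.72-fold lower in ectoderm (28.1 and 18.0 against 81.0 and 48.7, edgeR adjusted p = 4.39e-10), and the low-level ligand Slit3 was 4.34-fold lower (3.06 and 2.95 against 13.3 and 13.6). The wild-type and Crect lacZ values of Nrp2, Nrp1, Sema5a and Slit3 did not overlap between the classes. These genes were picked by the call on the same libraries, so this adds no support. The share of all genes with values apart was not computed.

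Slit2 and the Robos stayed within 2-fold between these classes. Slit2 was at 50.9 and 52.9 CPM in mesenchyme-like and 24.0 and 34.5 in ectoderm-like cells, 1.75-fold lower in ectoderm (1.37 to 2.23). Robo1 was at 52.7 and 46.6 against 30.1 and 27.4, and Robo2 at 62.2 and 34.0 against 44.0 and 25.03. For Robo2 the values of the classes overlapped, and the wild-type library was the higher in both.

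In all, 7 of the 32 members tested were called higher in ectoderm-like cells, where 11.3% of all 12688 genes tested were, and 4 were called lower, where 7.49% of all genes were. The remaining 9 members did not pass the filter on low counts. By role, 3 secreted semaphorins, 3 plexins and 1 membrane semaphorin were higher, and both neuropilins, 1 Slit and 1 membrane semaphorin were lower. The median log2 difference over the tested members was 0.24, against -0.02 over all genes. With a neuron-like sub-cluster counted as ectoderm, an alternative added after the data were seen, 14 members were called, including the 11.

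**Figure D2:**
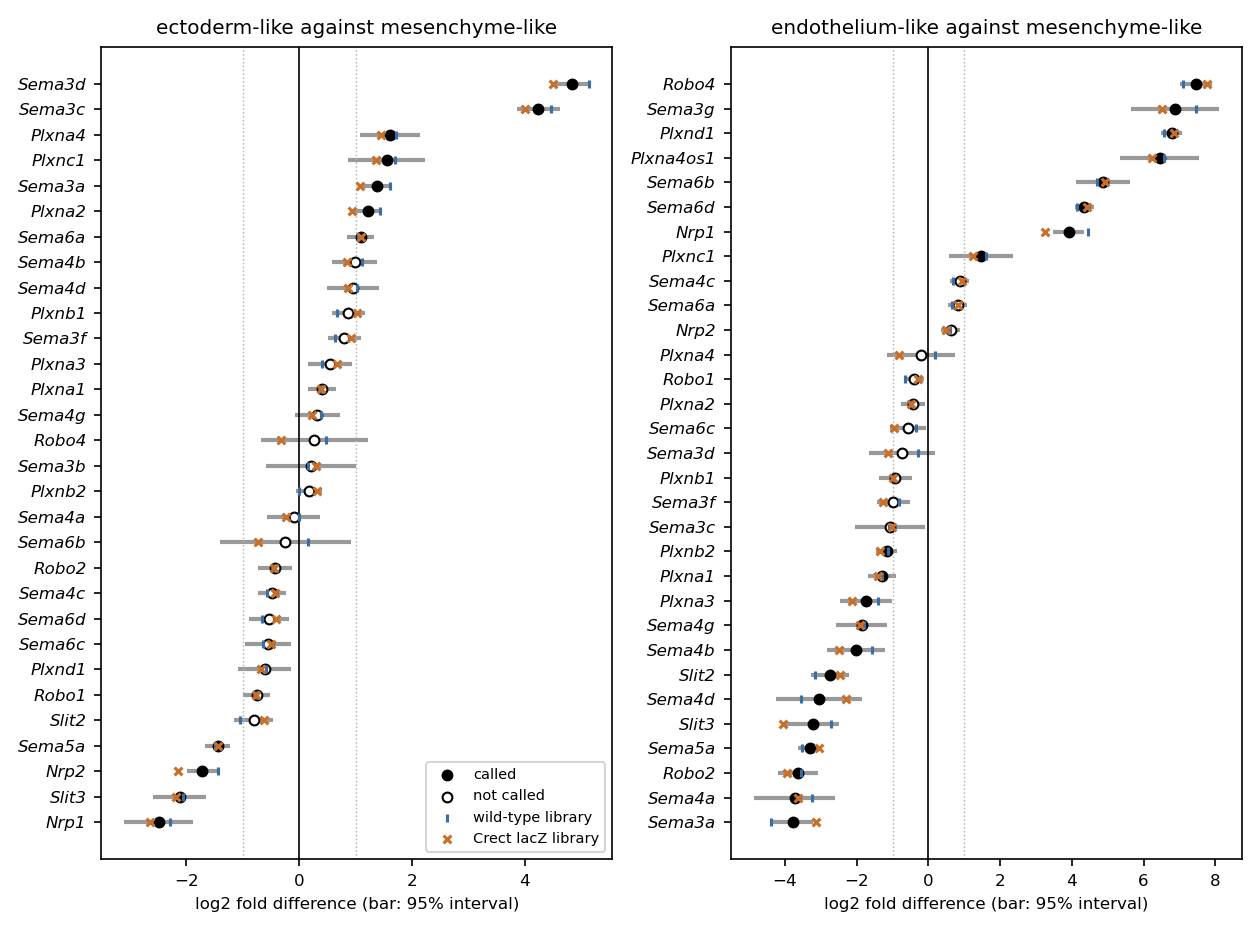
Log2 differences of members in ectoderm-like (left) and endothelium-like (right) against mesenchyme-like cells, with 95% intervals from edgeR (grey bars), called members as filled points and the value within each library as a blue tick or an orange cross; dotted lines mark 2-fold. Sema3d and Sema3c stand apart at 4.84 and 4.24 on the left, and Robo4, Sema3g, Plxnd1 and Plxna4os1 lie above 6 on the right; the members with the widest intervals (Sema3g and Plxna4os1 on the left, Sema3b on the right) are not drawn.

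Several receptors known from blood vessels were high in endothelium-like cells. Plxnd1, the endothelial plexin that binds Sema3e (chr6:115954811-115995005), was at 309 and 341 CPM against 3.70 and 3.14 in mesenchyme-like cells, a 110-fold difference (89.8 to 134, edgeR adjusted p = 5.44e-19). Thinned to 3000 UMIs per cell, 56.0% and 69.5% of endothelium-like cells held a Plxnd1 UMI, against 2 of 227 and 0 of 136 erythroid-like cells. Robo4, the Robo of blood vessels (chr9:37401897-37415115), was at 82.3 and 74.4 against 0.674 and 0.363, or 175-fold higher (129 to 238, edgeR adjusted p = 2.56e-16). Its neighbour Robo3 lies 553 bases away on the opposite strand and had 4 UMIs in all. Nrp1, a co-receptor for VEGF as well as semaphorins, was at 239.5 and 227 against 12.3 and 25.4 (14.98-fold, 11.2 to 20.0, edgeR adjusted p = 1.16e-12).

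A pair of membrane semaphorins was also endothelial. Sema6d, a plexin-A ligand, was at 88.1 and 96.4 CPM against 5.60 and 4.85 in mesenchyme-like cells (20.4-fold, edgeR adjusted p = 7.05e-17), and Sema6b was at 11.4 and 13.6 against 0.494 and 0.481. Sema3g, a secreted semaphorin of arteries, rested on few molecules: its 27 UMIs in wild-type endothelium-like cells stood against 2 in all wild-type mesenchyme-like cells, a ratio of 191 (exact interval 48.0 to 1657, counting error only). In the Crect lacZ library 27 UMIs stood against 6 (5.84 and 0.0641 CPM), and the fitted difference over both libraries was 117-fold (49.8 to 273). Sema3g was not highest in this class, since crest glia-like cells had a mean of 12.6 CPM. Plxnc1 was called higher at 3.07 and 2.16 against 1.16 and 1.03. Nrp2 was at 121 and 94.5 and did not reach 2-fold over mesenchyme (1.53-fold, 1.28 to 1.84). Robo1 was at 29.8 and 35.7 (1.32-fold below mesenchyme, 1.10 to 1.59).

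Sema3a, Sema5a, Slit2 and the receptor Robo2 were called lower in endothelium-like cells. Sema3a was at 1.70 and 3.24 CPM, 13.7-fold below mesenchyme (edgeR adjusted p = 1.68e-10), and no higher than the erythroid-like 3.41 and 4.83. Sema5a was 9.80-fold lower, Slit2 6.69-fold lower and Robo2 12.4-fold lower, each with erythroid-like levels in the same range as the endothelial ones. Sema3e, the ligand of Plxnd1, had 0 UMIs in wild-type and 0.216 CPM in Crect lacZ endothelium-like cells. It was at 4.20 and 2.44 in ectoderm-like cells and at most 0.599 in mesenchyme-like cells. In total 8 of 32 tested members were called higher in endothelium-like cells (12.9% of all genes tested) and 13 lower (14.2% of all genes tested), with a median of -0.83 over the members and -0.04 over all genes.

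Within the endothelium, cells of arterial-like sub-clusters were set against the rest. Sema3g was the 1 member called of 20 tested, 2.77-fold higher (1.62 to 4.74, edgeR adjusted p = 0.00537), where 0.897% of all genes were called higher and 0.629% lower. The call was lost without the library term (adjusted p = 0.533), and DESeq2 gave no adjusted p for the gene. Nrp1 was at 310.1 and 348 CPM in arterial-like and 207 and 159 in the other endothelium-like cells, 1.75-fold higher (1.53 to 1.99, edgeR adjusted p = 2.44e-14). Nrp2 lay the other way, at 89.5 and 70.5 against 135 and 108 (1.56-fold lower, 1.33 to 1.83, edgeR adjusted p = 6.48e-06). Neither neuropilin passed 2-fold, and in each library the arterial-like value was above the other for Nrp1 and below it for Nrp2. Plxnd1 and Robo4 did not differ by a called amount, with Plxnd1 1.08-fold lower (0.949 to 1.23) and Robo4 1.05-fold higher (0.882 to 1.24).

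Crest glia-like cells, the small class of neural crest-derived support cells of nerves, had the highest levels of Plxna4 and Sema4c among the classes. Plxna4, a plexin that carries Sema3a signals in sensory neurons, was at 61.4 and 57.7 CPM against 1.59 and 1.42 in mesenchyme-like cells (39.4-fold, 24.97 to 62.1, edgeR adjusted p = 1.09e-10). Sema4c, a ligand of Plxnb2, was at 84.9 and 73.3 against 23.7 and 21.0 (3.53-fold, 2.67 to 4.66, edgeR adjusted p = 6.36e-07). Nrp1 was at 149.96 and 167 (8.60-fold over mesenchyme), and Sema3c at 25.3 and 42.1 (7.73-fold). Sema3g, with 7 wild-type UMIs (12.6 CPM) against 2 in all wild-type mesenchyme-like cells, was also called. This level was above the 4.60 CPM of wild-type endothelium-like cells.

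Sema3a, Sema5a, Sema6a, Slit2, Robo1 and Robo2 were called lower in the crest glia-like cells, with 1 to 11 UMIs each behind the glial values of a library. Sema4a was called lower but had no UMI in glia-like cells of either library, and the level that 3 UMIs would give there (5.42 and 4.68 CPM) is above the mesenchymal level, so no fold is given. In all 9 of 32 members were called higher (5.45% of all genes tested) and 10 lower (5.19%), with a median of -0.66 over the members and -0.10 over all genes. These calls rest on 50 cells in all.

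Counts of Nrp1 and Plxnd1 were not confined to endothelium-like cells. The crest glia-like cells above also held Plxnd1, at 19.9 and 29.6 CPM, from 11 and 19 UMIs. Macrophage-like cells had 128 and 85.2 CPM of Nrp1 and 29.7 and 17.0 of Plxnd1. The endothelial marker list summed to 66.2 and 66.9 CPM in macrophage-like cells and 65.0 and 35.9 in crest glia-like cells, against 3788 and 3566 in endothelium-like cells. The part of that signal in these Plxnd1 values was not tested. Plxnc1, a receptor for Sema7a on myeloid cells, was at 29.7 and 18.2 against 1.16 and 1.03 in mesenchyme (26.1-fold, 12.7 to 53.7, edgeR adjusted p = 1.62e-07). Sema4d, a semaphorin of immune cells, was at 43.4 and 26.8 against 3.38 and 4.02 (11.1-fold, 6.50 to 19.0, edgeR adjusted p = 1.79e-07).

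Plxnb2, a receptor for Sema4c and Sema4d, was at 95.8 and 79.1 in macrophage-like cells against 51.7 and 52.2, and its call was lost in several alternatives (log2 difference 0.39 with doublets kept, in place of 1.03). Plxna4os1, an antisense transcript of the Plxna4 locus, was at 38.8 and 13.4 CPM in macrophage-like and 7.50 and 3.24 in endothelium-like cells, and at most 0.0843 in mesenchyme-like and ectoderm-like cells. The sources used here do not give the strand setting of the counting, so reads of Plxna4 and its antisense partner may not be separated. The sense gene followed another pattern, at 4.56 and 2.43 in macrophage-like cells. In all 8 of 32 members were called higher (16% of all genes tested) and 13 lower (15.1%), with a median of -1.43 against -0.17 over all genes. These calls rest on 58 cells in all.

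Neuron-like cells, which had clustered with the ectoderm and also carried olfactory markers, were compared with the other ectoderm. Slit2 was the 1 member called higher of 29 tested, at 99.5 and 60.3 CPM against 24.0 and 34.5 (2.73-fold, 1.99 to 3.76, edgeR adjusted p = 6.72e-05), where 2.87% of all genes were called higher. The log2 difference was 2.07 in the wild-type library and 0.77 in the Crect lacZ library. Ectodermal sub-cluster 3, described below, held more Slit2 than the neuron-like cells in the Crect lacZ library and less in the wild-type one. Plxna2 was 5.77-fold lower (14.9 and 6.34 against 78.2 and 43.4), Sema3d 3.36-fold lower and Sema3a 2.34-fold lower. With Sema3e, which had no UMI in neuron-like cells and so was at least 1.79-fold and 1.54-fold lower, 4 members were called lower (2.63% of all genes). Sema6a, at 75.2 and 67.7, and Sema3c, at 79.9 and 37.5, did not differ by a called amount from the other ectoderm. Neuronal markers summed to 265 CPM in the wild-type and 1207 in the Crect lacZ neuron-like cells. Ectodermal markers summed to 1672 and 1213 in the same cells, and olfactory markers to 740 and 850. The part of these mixtures in the Slit2 values was not tested.

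Periderm-like cells, the flat outer layer of the ectoderm, differed from the rest in both directions. Sema3c was at 26.5 and 13.1 CPM against 87.2 and 77.9 in the other ectodermal cells (4.17-fold lower, 3.10 to 5.60, edgeR adjusted p = 2.39e-19). Slit2 was 3.06-fold lower (9.73 and 14.2 against 31.1 and 39.6) and Sema3d 2.66-fold lower (22.1 and 20.2 against 60.03 and 48.6). Sema6a and Sema5a were also called lower and Plxna4, Sema3e and Slit3 higher, which gave 5 of 29 lower (5% of all genes tested) and 3 higher (5.78%). Of these 8 calls, DESeq2 and the fit without the library term each kept 4, all of them lower: Sema3c, Slit2, Sema3d and Sema6a.

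The mesenchyme itself was divided. Across 12 mesenchymal sub-clusters, cut from the same cells without the members, 20 of 29 members tested were called (F test over sub-clusters, adjusted p under 0.05 and a range of at least 2-fold), where 24.6% of all genes tested were. Their median range was 1.77 on the log2 scale, against 0.73 over all genes. Chondrogenic-like sub-cluster 10 was left out, since it held only 22 wild-type cells against 514 Crect lacZ cells. These p-values describe clusters of 2 libraries and not separate tissue samples. Ranges below are given with the edgeR adjusted p of that F test.

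Slit2 had its highest level in a maxillary-like sub-cluster. It was at 233 and 159 CPM in maxillary-like sub-cluster 7, led by Osr2 and Barx1, and at 8.39 and 16.8 in nasal-like sub-cluster 8 (range 4.10 on the log2 scale, edgeR adjusted p = 1.53e-18). Set against the rest of the mesenchyme, the maxillary-like cells of sub-clusters 3 and 7 had 128 and 112 CPM of Slit2 against 32.2 and 41.9 (3.31-fold, 2.81 to 3.89, edgeR adjusted p = 7.77e-06). Sema6d was 2.02-fold higher there (9.90 and 7.77 against 4.55 and 4.31) and Plxna4 5.34-fold lower (0.307 and 0.341 against 1.90 and 1.62). These made 2 of 33 members higher (1.47% of all genes tested) and 1 lower (2.13%), and none was called without the library term.

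The Slit receptors were placed elsewhere. Robo2 was highest in sub-clusters 4 (174 and 98.7 CPM) and 0 (133 and 82.7) and lowest in sub-cluster 6 (4.71 and 5.65), a range of 4.58 on the log2 scale (edgeR adjusted p = 4.85e-22). Robo1 ranged less (1.42), with 77.9 and 70.6 in sub-cluster 4 and its lowest levels in sub-cluster 6 in wild-type (26.6) and sub-cluster 7 in Crect lacZ cells (24.7) (edgeR adjusted p = 1.96e-14). In maxillary-like cells Robo1 was at 36.0 and 30.1 against 56.8 and 49.7 (1.59-fold lower, 1.47 to 1.71) and Robo2 at 36.1 and 21.2 against 68.5 and 36.4 (1.79-fold lower, 1.64 to 1.96), below the 2-fold needed for a call. Over the 12 sub-clusters Slit2 and Robo1 had a Pearson correlation of -0.64 in the wild-type and -0.67 in the Crect lacZ library, and Robo1 and Robo2 one of 0.77 and 0.73. They are among 14 pairs computed, chosen after the values were seen. The sub-clusters share their library and differ in depth, so these coefficients are descriptions.

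Neuropilin and plexin levels divided the mesenchyme in another way. Nrp2 was high in 6 sub-clusters (0, 3, 5, 7, 9 and 11), from 114 to 178 CPM in wild-type cells, and at 11.9 to 40.2 in the other 6. In the Crect lacZ library the former held 60.2 to 147 and the latter 13.2 to 47.2. Its range was 3.60 on the log2 scale (edgeR adjusted p = 1.82e-19). Plxna2 was highest in nasal-like sub-clusters 1 and 2 (72.8 and 43.4, and 72.7 and 55.7) and 12, and below 12 in sub-clusters 0, 3, 4 and 11 in both libraries. The correlation between the 2 receptors over sub-clusters was -0.53 and -0.47.

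Among the sub-clusters tested, Nrp1 had its highest values in sub-clusters 6 (36.1 and 42.9 CPM) and 7 (32.7 and 72.6), range 3.37. With chondrogenic-like sub-cluster 10 counted in, the Crect lacZ mesenchymal level rose from 22.8 to 25.4 for Nrp1 and from 63.9 to 71.5 for Nrp2. That sub-cluster thus held more of both than the other Crect lacZ mesenchyme-like cells did on average. Sema5a was highest in sub-cluster 0 (161 and 111), whose leading genes include Dlx5 and Pthlh, and lowest in sub-cluster 12 or 7 depending on the library (34.2 and 16.5). Sema3a ranged from 9.73 (sub-cluster 4) to 60.4 (sub-cluster 6) in wild-type cells and from 16.2 (sub-cluster 7) to 47.9 (sub-cluster 5) in Crect lacZ cells. The receptors Plxna1, Plxnb1 and Plxnb2 and the ligands Sema4c and Sema3f were not called among mesenchymal sub-clusters, with ranges of 0.38 to 0.57 on the log2 scale. A sub-cluster with low UMIs (sub-cluster 9, with a median 0.519 times that of the class) is included in these values.

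**Figure D3:**
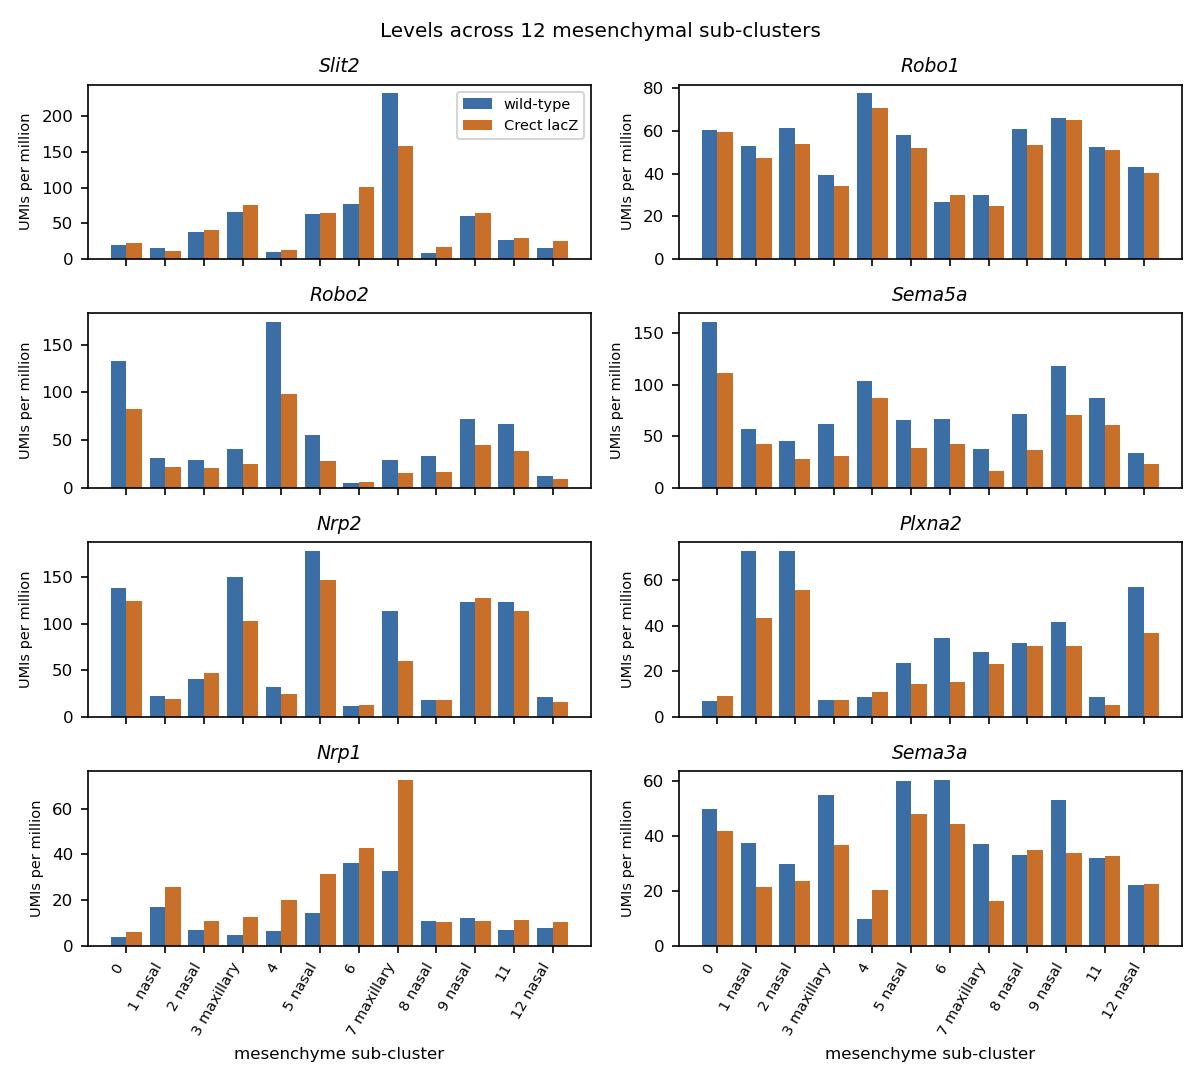
Levels of 8 members (CPM, bars from 0) in 12 mesenchymal sub-clusters, wild-type in blue and Crect lacZ in orange, 1 library each and so without error bars. Slit2 stands out in maxillary-like sub-cluster 7 (233 and 159), Robo2 in sub-clusters 0 and 4, and Nrp2 and Plxna2 are high in largely different sub-clusters.

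In the ectoderm 18 of 27 members tested were called across 8 sub-clusters, where 26.1% of all genes tested were, with a median range of 2.35 on the log2 scale against 0.85 over all genes. Basal surface-like sub-clusters 0 and 2, led by Wnt3 and Wnt7b, held high Sema3a together with Plxna2 and Robo2. Sema3a was at 301 and 231 CPM in sub-cluster 0 and 37.9 and 26.5 in oral-like sub-cluster 1 (range 2.99, edgeR adjusted p = 2e-17). Plxna2 was at 159.9 and 137 in sub-cluster 0 and 154 and 122 in sub-cluster 2, against 15.4 and 7.86 in oral-like cells (range 3.83, edgeR adjusted p = 1.24e-16). Robo2 was at 113 and 105 in sub-cluster 0, 78.1 and 65.7 in sub-cluster 2 and 6.39 and 3.31 in sub-cluster 4 (range 4.49, edgeR adjusted p = 9.8e-15). The correlation of Sema3a with Plxna2 over the 8 sub-clusters was 0.79 and 0.83.

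Other ectodermal members peaked elsewhere. Sema6a was at 231 and 212 CPM in sub-cluster 6, led by Dkk4, Sox9 and Pthlh, and at 30.9 to 75.2 in the others except sub-cluster 3, which had 119.5 and 113 (range 2.63, edgeR adjusted p = 6.62e-14). Sema3d was highest in oral-like sub-cluster 1 in Crect lacZ cells (96.8) and in sub-cluster 6 in wild-type cells (92.7). Slit2 was at 65.7 and 65.5 in sub-cluster 3 and 50.02 and 46.8 in sub-cluster 4, and below 10 in the basal surface-like sub-clusters where Robo2 was high. Nrp2 was at 60.1 and 28.0 in oral-like cells, with 47.7 and 44.4 in sub-cluster 2. Sema3e, at a low level throughout, was also called, with no UMI in neuron-like sub-cluster 5. Nrp1 was not called in the ectoderm (edgeR adjusted p = 0.0506).

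**Figure D4:**
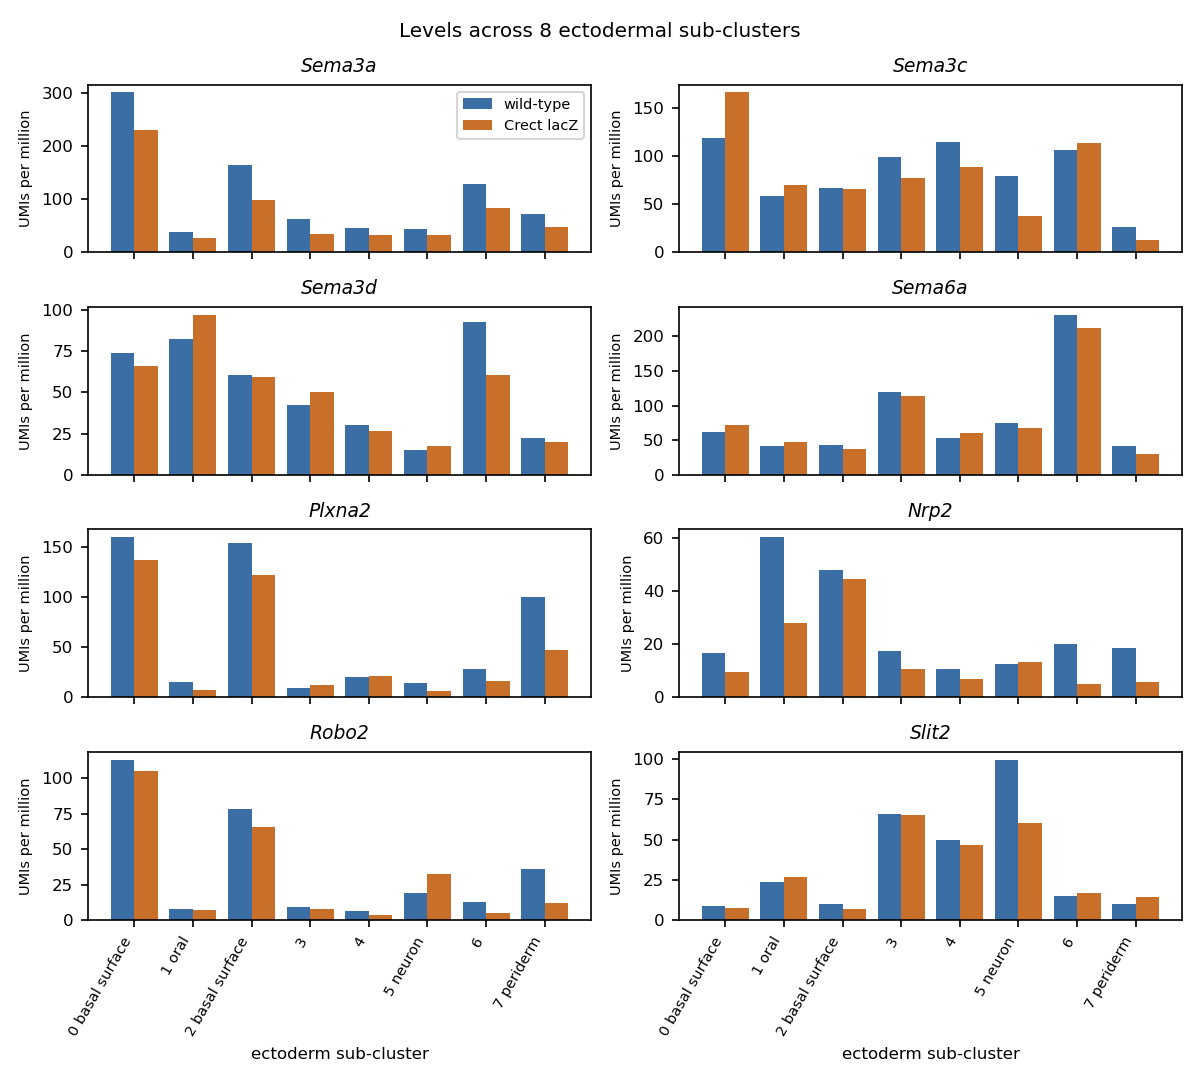
Levels of 8 members (CPM, bars from 0) in 8 ectodermal sub-clusters, wild-type in blue and Crect lacZ in orange, 1 library each. Sema3a, Plxna2 and Robo2 are high in basal surface-like sub-clusters 0 and 2, Sema6a in sub-cluster 6 (231 and 212) and Slit2 in sub-clusters 3, 4 and 5.

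Genes that work with these signals were followed as 2 lists. Of 35 partners (collapsin response mediators, kinases, adhesion molecules and other known partners) 32 were tested against mesenchyme. In ectoderm-like cells 6 were called higher (11.3% of all genes tested) and 4 lower (7.49%), with a median of -0.16. The higher ones included Dag1, the dystroglycan that binds Slit (73.4 and 76.7 CPM against 19.8 and 21.0, 3.77-fold), and Dpysl5, a collapsin response mediator (17.9 and 22.4 against 1.72 and 1.82, 11.6-fold). Another collapsin response mediator, Dpysl4, was 4.45-fold lower (2.55 and 3.54 against 13.8 and 13.6). In crest glia-like cells 9 were higher (5.45% of all genes) and 1 lower (5.19%), including Dpysl3, another mediator, at 647 and 507 against 37.0 and 37.1 (15.5-fold, 11.4 to 21.0, edgeR adjusted p = 2.25e-11). In endothelium-like cells 7 were higher (12.9% of all genes) and 7 lower (14.2%). Fyn, a kinase downstream of plexin-A, was at 127 and 102 against 23.5 and 22.6, and the actin regulator Enah was 3.09-fold lower. In macrophage-like cells 5 were higher (16% of all genes) and 10 lower (15.1%).

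Of 12 netrin pathway genes 6 were tested, and 1 (Ntn1) was called higher in ectoderm-like cells (11.3% of all genes), at 2.23 and 4.80 CPM against 0.999 and 1.68. In endothelium-like cells none was higher (12.9% of all genes) and 4 were lower (14.2%), including the netrin receptor Unc5c (3.41 and 2.38 against 42.0 and 38.2). Within the endothelium Unc5b, a netrin receptor of arteries and tip cells, was left out of the clustering but is on the marker list that named the arterial-like cells. Its 4.69-fold higher level there (58.4 and 77.0 against 12.1 and 15.9) was therefore partly built into the naming and is not a separate result.

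Levels in the Crect lacZ library were set against the wild-type library. With 1 library per genotype no test of genotype is possible, so ratios are given with exact 95% intervals that cover counting error only, and members are counted past 1.5-fold. In mesenchyme-like cells 1 of 29 members with at least 100 UMIs was higher in Crect lacZ (4.62% of all 12957 such genes were) and 2 were lower (9.32% of all genes). Nrp1 was 2.05 times the wild-type level (1.91 to 2.21), and after thinning 7.07% of Crect lacZ and 3.56% of wild-type mesenchyme-like cells held a UMI (24.5% and 12.02% unthinned), with 0 of 136 and 1 of 227 erythroid-like cells. Robo2 was 0.546 times (0.523 to 0.571) and Sema5a 0.602 times (0.580 to 0.625) the wild-type level. The median log2 ratio was 0.01 over the members and -0.08 over all genes.

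Sub-clusters are parts of these same class sums. Nrp1 was higher in the Crect lacZ library in 10 of 12 mesenchymal sub-clusters, Robo2 lower in 11 of 12 and Sema5a lower in 12 of 12. These members were picked by the class ratio of the same 2 libraries, so the counts add no support. A chondrogenic-like sub-cluster was mostly from 1 library, with 514 Crect lacZ cells against 22 wild-type cells. Without it, in an alternative added after the data were seen, the Nrp1 ratio was 1.84 (1.71 to 1.99) and the same 3 members passed 1.5-fold, 1 higher (3.73% of all genes) and 2 lower (9.64%). Differences between dissections or libraries cannot be told apart from genotype here.

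In ectoderm-like cells 2 of 22 members were past 1.5-fold higher in Crect lacZ (3.71% of all 10519 genes) and 5 lower (7.76%). Nrp2 was at 0.49995 times the wild-type level (0.421 to 0.591), Sema3a at 0.536 (0.493 to 0.582), Plxna2 0.555 (0.4995 to 0.615), Robo2 0.569 (0.495 to 0.652) and Sema5a 0.642 (0.543 to 0.757). Plxnb1 was 1.57 times (1.36 to 1.81) and Sema3f 1.56 times (1.35 to 1.802) the wild-type level. Both fell within 1.5-fold when doublets were kept, and so did they with a mitochondrial limit of 5 percent.

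Basal surface-like cells, where Sema3a, Plxna2 and Robo2 were high, made up 41.4% of wild-type and 26.2% of Crect lacZ ectoderm-like cells. Within sub-cluster 0 the Crect lacZ and wild-type levels were 231 and 301 for Sema3a, 137 and 159.9 for Plxna2 and 105 and 113 for Robo2, all closer than in the whole class. Plxna2 and Robo2 were also closer in sub-cluster 2, and Sema3a in oral-like sub-cluster 1. In ratio, Plxna2 in sub-cluster 1 and Robo2 in sub-cluster 4 were at least as far apart as in the whole class. The members lower in the class were picked by the class ratio of the same libraries, so counts over its sub-clusters add no support. Sema3a and Sema5a were lower in Crect lacZ in 8 of 8 ectodermal sub-clusters, Nrp2 and Robo2 in 7 and Plxna2 in 6. Those 8 include neuron-like sub-cluster 5, which is outside the ectoderm-like class, and leave out sub-clusters 8 and 9. The latter made up 1.68% and 0.336% of wild-type and 10.1% and 5.49% of Crect lacZ ectoderm-like cells. The part of composition in the class ratios was not tested. Of 11 members with enough UMIs in endothelium-like cells none passed 1.5-fold in either direction (2.32% of all genes were higher and 9.61% lower), with ratios from 0.780 to 1.20. Nrp1 was at 0.949 times the wild-type level there (0.875 to 1.03), unlike its ratio in mesenchyme. The difference between these ratios was not tested.

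The ratios also moved with gene span. Over all 12923 genes of mesenchyme-like cells with a span in the annotation, the Spearman coefficient of span with the log2 ratio was -0.17, and over the 29 members it was -0.33. In ectoderm-like cells the values were -0.17 over 10508 genes and -0.59 over 22 members. Robo2, Sema5a and Sema3a span 520.0, 452 and 477 kb, and Plxnb1 and Sema3f 24.5 and 29.0 kb. Other members did not follow this order. The longest member, Robo1 (738 kb), was at 0.884 times the wild-type level in mesenchyme-like and 0.911 in ectoderm-like cells. Slit3 (587 kb) was at 1.02 and Nrp1 (145 kb) at 2.05 in mesenchyme-like cells. In ectoderm-like cells Slit2 (325 kb) was at 1.44, and Nrp2, the lowest, spans only 115 kb. The part of span in these ratios was not tested.

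**Figure D5:**
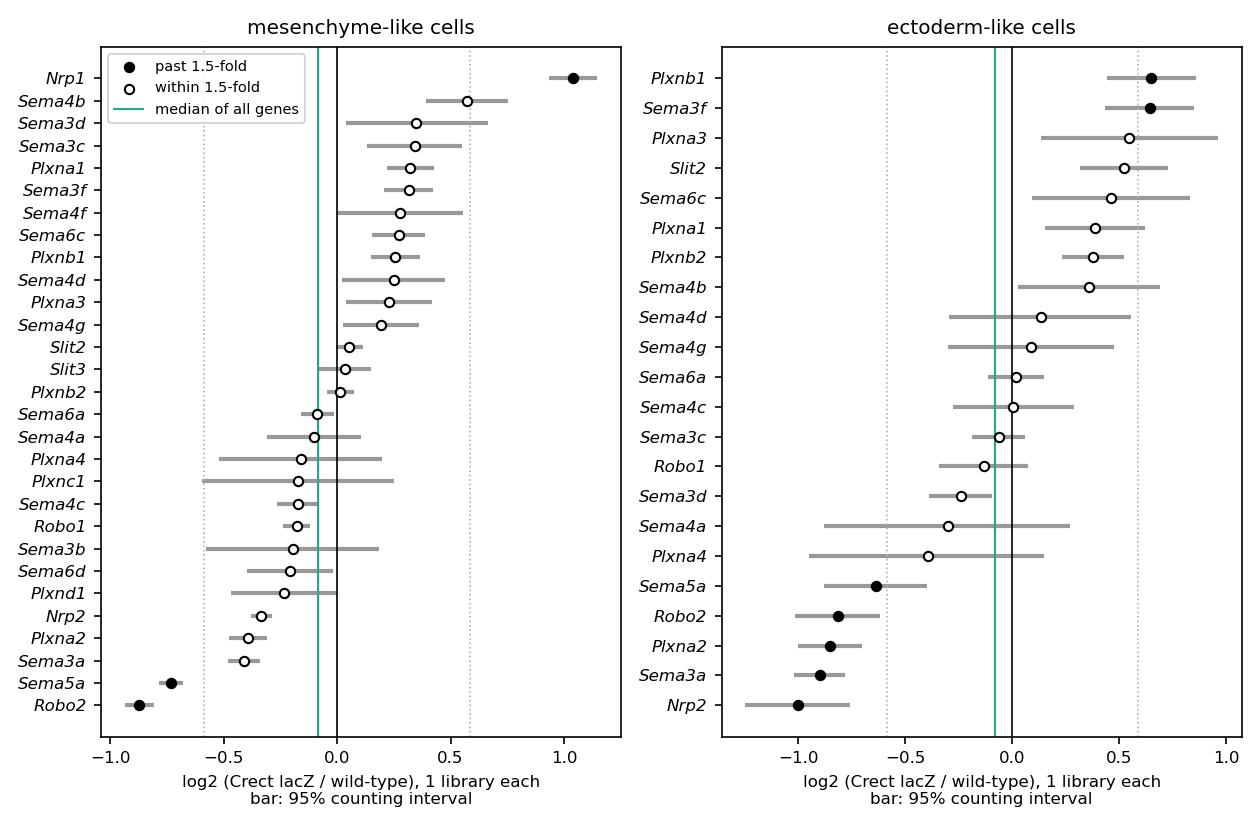
Log2 ratio of Crect lacZ to wild-type level for members with at least 100 UMIs in mesenchyme-like (left) and ectoderm-like (right) cells, 1 library each, with 95% counting intervals (grey bars) and filled points past 1.5-fold (dotted lines); the green line is the median of all genes. Nrp1 is highest on the left at 1.04 and Robo2 lowest at -0.87, and on the right Nrp2 is lowest and Plxnb1 highest.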

How the data were processed

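The deposited values are raw UMI counts per gene and cell barcode, from 10x Genomics 3' v2 libraries per the labels, and were made with Cell Ranger 2.0 on build mm10, per the submitters' processing notes. The sources used here give neither barcode filtering nor strand setting. Members, lists and comparisons were chosen with earlier results of these data known, and the rule for naming clusters was set after the data were seen.

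Cells with 500 or more genes and at most 10% mitochondrial UMIs were kept (57 and 207 barcodes were above that limit). The highest Scrublet scores, 0.008 of the cells per 1000 cells, were removed in each library (500 and 358), since the automatic threshold marked 170 and only 2. Cells were clustered in scanpy 1.11.5 (2000 genes, members and partner lists left out, 30 components, 15 neighbours, Leiden resolution 1, and 0.8 for sub-clusters). No sub-cluster took the olfactory name, so that comparison was not made. Counts were summed per class and library and tested with edgeR 4.0.16 (quasi-likelihood, TMM, filterByExpr, library term, Benjamini-Hochberg over all genes tested), with 5 residual degrees of freedom across classes and 1 in comparisons within a class. F tests used sub-clusters with 50 or more (mesenchyme) or 20 or more (ectoderm) cells. Both libraries bear the same replicate number, and the library term is the pairing, since classes of 1 library come from the same embryos. Alternatives were DESeq2 1.42.0, other scalings, filters, fits, clusterings and leaving out each library. Cell shares were computed after thinning to 3000 UMIs. Intervals on shares are exact (Clopper-Pearson), and they, the Poisson limits and the ratio intervals cover counting error only. Gene positions are from GENCODE vM21, which held 41 of 41 members. Named members reached 20 CPM in some class, and from each partner list up to 4 called genes with the highest levels qualified for naming. The steps were tested on simulated data. Of 2-fold changes, 43% were recovered for glia-like, 41% for macrophage-like and 59% for periderm-like cells, and 67% to 98% in the other comparisons. Both simulated libraries had the same mean profile, so the simulation held no difference between libraries or genotypes.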

Additional observations from a re-analysis of the deposited data

How the results depend on the processing

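No member called between classes or within a class reversed its direction in any alternative run, and of 1480 values of called members under alternatives 1401 stayed past the threshold and 79 did not. The counts of called members against mesenchyme (11, 21, 19 and 21 for ectoderm-like, endothelium-like, glia-like and macrophage-like cells) and across sub-clusters (20 and 18) stayed within 1.5 times under every alternative run. Leaving out a library left 10 to 11, 21, 19, 20, 20 and 17 to 18 of them past 2-fold in the other. These members were already called on both libraries together, and no test was run in 1 library. Such counts, here and below, were therefore largely built in and add little support. Comparisons within a class, with 1 residual degree of freedom, did not hold as well. For periderm-like cells the 8 calls became 4 with DESeq2, 4 with no replicate block (without the library term), 5 with doublets kept and 4 at a mitochondrial limit of 5 percent, and 5 to 8 held in the library left when the other was left out. With DESeq2 none of the 3 higher calls in periderm-like cells held, so the higher share went from 37.5% to 0%. For neuron-like cells 5 became 3 without the block and 4 to 5 held in 1 library. For maxillary-like cells 3 became 0 without the block and 5 at the 5 percent limit, with 2 to 3 in 1 library. For arterial-like cells 1 became 0 with DESeq2 (no adjusted p for Sema3g), 0 without the block and 2 with members among the clustering features, with 1 in either library. Without the block, 15 of the 20 and 16 of the 18 calls across sub-clusters held, and it lost no call between ectoderm-like and mesenchyme-like cells. Between genotypes 3 members past 1.5-fold in mesenchyme-like cells became 6 at 50 or more UMIs, and the ectodermal 7 ranged from 5 to 9. Shares of cells move with thinning, since deeper cells hold more UMIs. Glia-like and macrophage-like cells number 50 and 58, and values there rest on few UMIs.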
